A study of Mus musculus with 37 samples.

Results

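The genes described here are 39 genes of fatty acid uptake, activation, mitochondrial oxidation, storage and fuel choice, measured in the left ventricle of mice after cardiac arrest. They were taken by gene symbol from a table of 56748 genes, which held exactly 1 row for each of the 39, and all 39 passed the filter on low values that left 16579 genes for testing. Bulk RNA was sequenced from 37 hearts of male and female C57BL/6J mice aged 8–10 weeks. Naïve mice (n = 5) had isoflurane anaesthesia alone, with no intubation and no injection. Adr mice, which the sample labels call sham, were anaesthetised with isoflurane, intubated and ventilated, were given 40 µL of saline into the left ventricle and, 8 min later, 500 µL of adrenaline at 15 µg/mL (n = 4 at each of 0.5, 1, 3 and 7 days). Arrest mice had the same anaesthesia and ventilation, but the 40 µL held 0.5 M KCl, which stopped the heart for 8 min before adrenaline and chest compressions were given (n = 4 at each of the same days). The apex, where the needle entered, was discarded and the hearts were flushed with saline. Adr controls therefore share the needle, the ventilation and the adrenaline with Arrest, and lack the KCl, the asystole and the compressions. Naïve mice lack all of these, and also the days of recovery and the repeat echocardiogram, because their tissue was collected after baseline imaging. The part of that interval in the comparisons with Naïve was not tested.

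The adult heart takes most of its energy from long-chain fatty acids. Lipoprotein lipase frees them from circulating triglyceride, CD36 and fatty acid binding proteins carry them across the endothelium and into the myocyte, acyl-CoA synthetases activate them, and the carnitine shuttle moves them into mitochondria, where the beta-oxidation spiral shortens them. Surplus fatty acid is stored in lipid droplets, and the nuclear receptor PPARα, activated by fatty acids, raises the transcription of many of these genes in fasting or when lipid supply is high. Pyruvate dehydrogenase kinases hold back glucose oxidation while fatty acids are burnt.

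Values are FPKM, fragments per kilobase of gene scaled by a factor for each library, so levels can be compared between genes per length. That factor differed from the fragments counted on genes. In replicate 3 of Adr at 3 days it was 24.1 M, beside 17.2 M fragments. The median ratio of a library to the geometric mean over libraries, among genes read in all, was 1.0131 in each library. Differences between libraries therefore carry this scaling. Fold changes are differences of group means on the log2(FPKM + 1) scale, with the standard error (SE), and each adjusted p is from limma's two-sided moderated test with Benjamini-Hochberg adjustment over the 16579 genes of that comparison. Members past an adjusted p of 0.05 are said to have risen or fallen. Nothing in the labels says how the hearts were distributed over days of work, so the p-values measure only the spread between these libraries, part of which may be technical. In bulk tissue, fewer cells of a type and less RNA per cell cannot be told apart.

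Library sizes ran from 13.2 to 30.2 M fragments counted on genes. Replicate 3 of Adr at 3 days stood apart: mitochondrially encoded genes took 9.36% of its fragments against 20.8% to 30.9% in the other 36 libraries, and the summed FPKM of 6 cardiomyocyte markers was 3158 against 6546 to 15148 elsewhere. In that library 33 of the 39 members were the lowest of their group of 4, 4 were the highest (Cpt1a, Ucp2, Plin2 and Angptl4), and the median member stood at 0.30 times its Naïve mean. The labels do not set it apart, so the counts of members called in each comparison are given with it and without it. All 6 cardiomyocyte markers were detected in every group. The sum of 8 adipocyte markers, among them Adipoq and Plin1, was 0 to 4.17 FPKM in Naïve and 0.88 to 2.88 in Arrest at 1 day, with Cidec, Plin1 and Retn at 0 in every Naïve library. Adipocyte signal was larger in other groups, with up to 43.1 FPKM in Adr at 1 day and up to 131 in Arrest at 7 days. Each sample also carries a number in its description label whose meaning is not stated. It was 116 to 127 in Naïve and 70 to 95 in Arrest at 1 day, so whatever the number orders cannot be told apart from that comparison.

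Changes were seen early after arrest and went upwards. Against Naïve, 2 of 39 members rose in Arrest at 0.5 days and 7 of 39 at 1 day, which were members of uptake, lipid droplets, thioester hydrolysis, uncoupling and unsaturated fatty acid handling, and none fell. The enzymes that carry out the main steps of the oxidation spiral were not among them. The 7 members at 1 day were 17.9% of the list, beside 7.11% of all genes called in either direction and 3.89% called higher. At 0.5 days the 2 members were 5.13% of the list, beside 3.2% of all genes in either direction and 1.75% higher. The 0.5-day count therefore does not set the list apart from all genes. The median log2 fold change of the 39 was 0.18 at 0.5 days and 0.32 at 1 day, beside 0.03 over all tested genes on both days. At 1 day 34 of 39 were above 0, beside 53.96% of all tested genes. Without replicate 3 of Adr at 3 days, the model's estimate of spread was smaller and 5 members rose at 0.5 days and 13 at 1 day. The all-gene shares were then 5.49% in either direction and 3.01% higher at 0.5 days, and 10.3% and 5.71% at 1 day. Leaving out replicate 4 of Arrest at 1 day also gave 13 members, and leaving out replicate 1, 2 or 3 of that group gave 2, Acot13 and Lipe. Fabp4, Pnpla2, Plin5, Eci2 and Ucp2 thus each lost their 1-day call without any 1 of those 3 libraries (adjusted p = 0.076 to 0.19). With 1 Naïve library left out in turn the count was 2 to 5. The shares of all genes called in these leave-one-out fits are not given here, so the moves are not shown to be particular to the members. With the description number as a covariate 0 of 39 members passed on either day in limma's test, and 1 passed at 1 day, and 3 at 0.5 days, when replicate 3 of Adr at 3 days was also left out. The shares of all genes called in these covariate fits are not given here either, so these counts do not set the members apart. With that covariate and all libraries the 1-day log2 fold changes were 1.06 ± 0.31 for Acot13, 1.14 ± 0.34 for Lipe, 1.24 ± 0.48 for Pnpla2, 1.08 ± 0.49 for Plin5 and 0.81 ± 0.29 for Eci2, about as large as without it or larger, with larger SEs. Those of Fabp4 and Ucp2 were smaller, at 0.63 ± 0.43 and 0.73 ± 0.45. The numbers of Naïve and of Arrest at 1 day do not overlap, so this covariate cannot separate the number from the groups. No conclusion is drawn from these sizes.

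**Figure D1:**
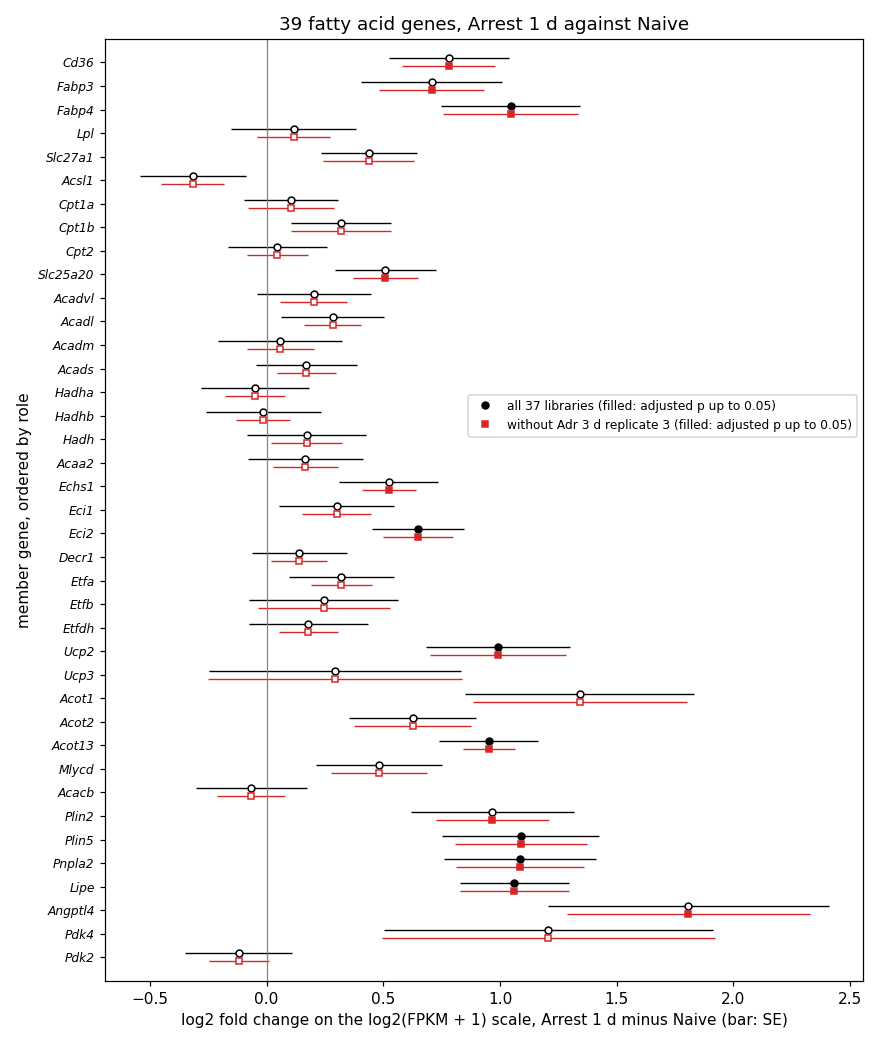
Log2 fold change on the log2(FPKM + 1) scale of the 39 members in Arrest at 1 day against Naïve (x axis), with 1 row per gene ordered by role and bars for the SE, in the fit of all 37 libraries (black) and without replicate 3 of Adr at 3 days (red). Filled symbols mark an adjusted p up to 0.05, 7 in black and 13 in red, all to the right of 0.

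Adr mice had fewer calls at 0.5 and 1 days, over all genes as among the members. With all libraries 0 of 39 members passed limma's threshold in Adr at 0.5, 1, 3 or 7 days against Naïve, where the shares of all genes called were 0.187%, 0.627%, 0.0% and 0.0%. At an unadjusted p of 0.05, 6, 3, 9 and 0 members were below it on the 4 days, beside 2315, 2435, 2297 and 1023 of all 16579 genes. On fragments, limma's voom called 1, 1, 0 and 0 members, beside 92, 198, 1 and 4 of all genes. Without replicate 3 of Adr at 3 days, 1 member rose at 0.5 days and 1 rose and 1 fell at 1 day (1.35% and 2.5% of all genes), 0 passed at 3 and 7 days (0.0% of all genes on both), and the 9 members with low unadjusted p at 3 days became 0 (2 at 7 days). The median member at 3 days in Adr moved from −0.39 with that library to 0.00 without it, so the apparent fall of the pathway there rested on 1 library.

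Fatty acid uptake was described by 5 members, of which 1 rose with all libraries and 3 without replicate 3 of Adr at 3 days. Cd36, the main fatty acid translocase of muscle and endothelium, read 420.0, 369, 414, 369.6 and 489 FPKM in the 5 Naïve libraries. It read 619.6, 744, 543 and 758 FPKM in Arrest at 0.5 days and 897, 761, 822 and 439 at 1 day. Every 0.5-day library lay above every Naïve one, and at 1 day 3 libraries did while replicate 4 lay inside the Naïve range. Its log2 fold change was 0.69 ± 0.26, adjusted p = 0.13 at 0.5 days and 0.78 ± 0.26, adjusted p = 0.059 at 1 day with all libraries, and the adjusted p became 0.038 and 0.011 without the Adr library. Adr libraries read 383, 373, 622 and 568 FPKM at 0.5 days and 407, 313, 515 and 693 at 1 day, overlapping both Naïve and Arrest.

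Fabp4, a lipid chaperone of endothelium and adipocytes, was among the members with the larger changes at 1 day. It read 132, 125, 117, 144 and 147 FPKM in Naïve and 442, 304, 370.1 and 114 in Arrest at 1 day, a log2 fold change of 1.05 ± 0.30, adjusted p = 0.029. Replicate 4 lay below the whole Naïve range while the others were above it. Endothelial markers (6 genes) summed to 189, 191, 197 and 132 FPKM in these 4 libraries and 171, 176, 176, 173 and 182 in Naïve, so the lowest sum was in the same replicate, and its part in the result was not tested. At 0.5 days Fabp4 read 200.2, 331, 154 and 149 FPKM in Arrest and 171, 148, 333 and 283 in Adr, all above the Naïve maximum. None of these differences passed the threshold at 0.5 days (adjusted p = 0.31 in Arrest).

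Fabp3, the abundant cytosolic binding protein of cardiac myocytes, had the highest level per length of the 39 members. It read 2033, 2896, 3460.0, 3349 and 2015 FPKM in Naïve and 3404, 4689, 5637 and 4050.3 in Arrest at 1 day, with replicate 1 inside the Naïve range. Its log2 fold change was 0.71 ± 0.30, adjusted p = 0.16 with all libraries and passed at 0.04 without replicate 3 of Adr at 3 days. Zcchc17 and Gm10570 overlap Fabp3 on the other strand, so fragments may be shared if strand was not used in counting. Lpl, the lipase itself, did not pass in either fit. It read 572, 510.0, 515, 415 and 589.9 FPKM in Naïve, 618, 526, 477 and 688 in Arrest at 0.5 days and 586, 571, 605 and 485 at 1 day, and its log2 fold change at 1 day was 0.12 ± 0.27, adjusted p = 0.86. Slc27a1, a fatty acid transport protein, ranged from 14.8 to 25.2 FPKM in Naïve and 22.8 to 29.2 in Arrest at 1 day (log2 fold change 0.44 ± 0.20, adjusted p = 0.2).

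Activation and mitochondrial entry held the member that went down. Acsl1, the main cardiac long-chain acyl-CoA synthetase, ranged from 57.6 to 72.8 FPKM in Naïve, 48.4 to 53.9 in Arrest at 0.5 days and 36 to 53.9 in Adr at 1 day, the last 2 wholly below Naïve. Its log2 fold change was -0.57 ± 0.23 in Adr at 1 day and -0.68 ± 0.23 in Arrest at 3 days. Neither passed with all libraries (adjusted p = 0.23 and 0.17), whereas both fell past the threshold without replicate 3 of Adr at 3 days (adjusted p = 0.021 and 0.01). It was the 1 member of the list that fell in any of the 14 comparisons of either fit. Acsl1 lies outside the rule for values in every library and was named after its values were seen.

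Slc25a20, the carnitine-acylcarnitine carrier of the inner mitochondrial membrane, was 30.1, 25.5, 32.3, 30.7 and 31.4 FPKM in Naïve and 47.7, 41, 51.6 and 33.8 in Arrest at 1 day. All 4 Arrest libraries were above all 5 Naïve ones. On the log2 scale the change was 0.51 ± 0.22, adjusted p = 0.15 with all libraries and passed at 0.018 without the Adr library. Cpt1a, the liver-type carnitine palmitoyltransferase of the outer membrane, overlapped between these groups, with 5.88, 6.48, 5.68, 3.66 and 5.81 FPKM in Naïve and 6.3, 7.05, 5.74 and 4.71 in Arrest at 1 day (log2 fold change 0.10 ± 0.20, adjusted p = 0.82). Cpt2, the inner membrane enzyme, ranged from 73.2 to 91.6 FPKM in Naïve and 72.9 to 94.5 in Arrest at 1 day.

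Cpt1b, which encodes the muscle-type enzyme and is ordinarily well expressed in heart, was almost unread in this table. It read 0.42, 0.73, 0.27, 0 and 0.82 FPKM in Naïve and 0.14, 1.84, 0.92 and 0.56 in Arrest at 1 day, and over all 37 libraries it had 0 to 96 fragments. The table gives Cpt1b on chromosome 15 from 89300608 to 89310066 (minus strand, build not given in the sources used here) and lists Gm44502 overlapping it on the same strand, and the way fragments were assigned to overlapping genes is not given in the sources used here. The values of Cpt1b are therefore uncertain, and its log2 fold change of 0.32 ± 0.21 at 1 day is not read as a result.

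The acyl-CoA dehydrogenases, which open each turn of the spiral, did not pass the threshold at any time. Acadvl, the very-long-chain enzyme, read 94.4, 111, 119, 106 and 85.3 FPKM in Naïve, 99.9, 118, 95.2 and 105 in Arrest at 0.5 days and 113, 141, 121 and 101 at 1 day. Acadm, the medium-chain enzyme, read 210.2, 227, 244, 191 and 228 FPKM in Naïve, 251, 201, 199 and 198 in Arrest at 0.5 days and 220.2, 215, 257 and 224 at 1 day. The groups overlapped for both genes. Over the 4 dehydrogenases (with Acadl and Acads) the log2 fold changes in Arrest ran from −0.06 to 0.18 at 0.5 days and from 0.06 to 0.28 at 1 day, and 0 of 4 passed in either fit. The SE of these differences was 0.22 to 0.27 with all libraries, so small changes were not detectable at this spread.

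The later steps gave 1 exception. Hadha, the alpha subunit of the trifunctional protein, read 113, 117, 132, 116 and 119.9 FPKM in Naïve, 117, 110.2, 101 and 106 in Arrest at 0.5 days and 112, 123, 120.3 and 106 at 1 day, a log2 fold change of -0.05 ± 0.23, adjusted p = 0.94 at 1 day. Its partner Hadhb and the thiolase Acaa2 ranged from 166 to 204 and 391 to 476 FPKM in Naïve and from 166 to 199.9 and 462 to 540.0 in Arrest at 1 day. Hadh, the short-chain hydroxyacyl-CoA dehydrogenase, likewise overlapped Naïve (log2 fold change 0.17 ± 0.26). Echs1, the short-chain enoyl-CoA hydratase, differed. It read 41.1, 43.8, 40.6, 43.1 and 40.9 FPKM in Naïve and 57.5, 57.5, 69.8 and 58.5 in Arrest at 1 day, so that the lowest Arrest library was well above the highest Naïve one, and its Naïve spread was narrow. Arrest over Naïve gave a log2 fold change of 0.52 ± 0.21, adjusted p = 0.13 with all libraries and 0.52 ± 0.11, adjusted p = 0.0035 without replicate 3 of Adr at 3 days, in which Echs1 read 12.3 FPKM. Paox overlaps Echs1 on the other strand, and reads of the pair cannot be told apart if strand was not used in counting.

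**Figure D2:**
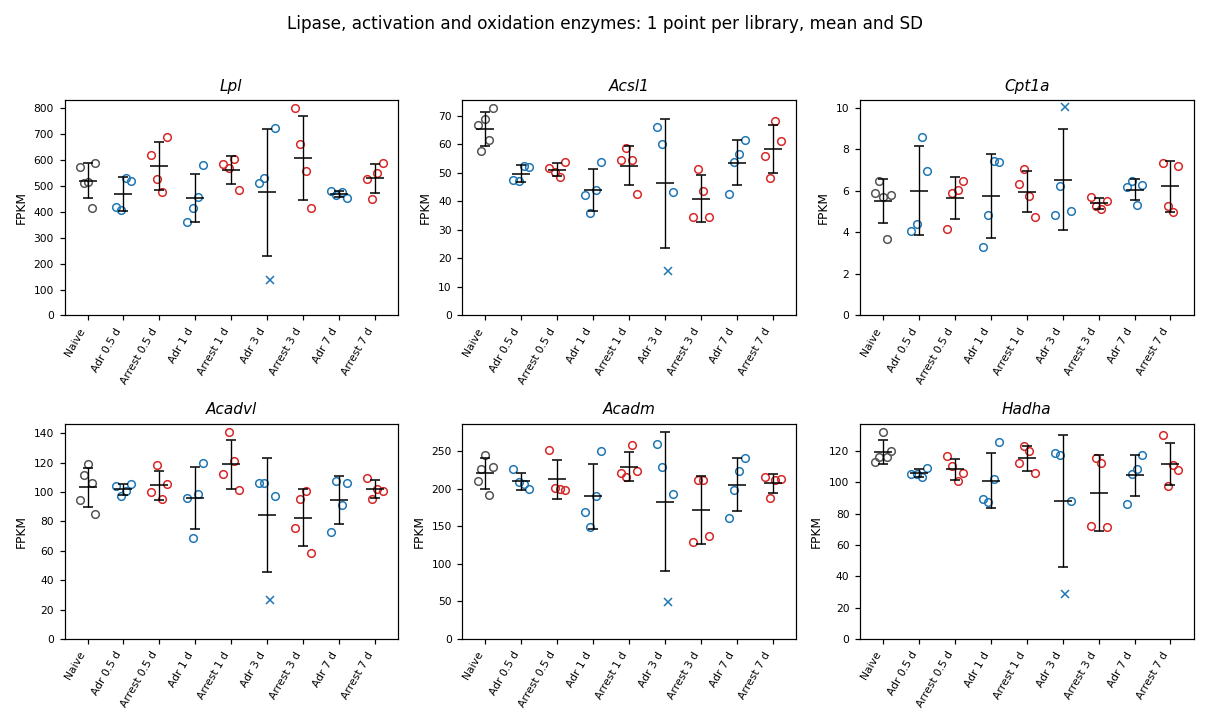
FPKM (y axis, from 0) of Lpl, Acsl1, Cpt1a, Acadvl, Acadm and Hadha in the 9 groups (x axis), with 1 point per library, the group mean and the SD, and a cross for replicate 3 of Adr at 3 days. Acadvl, Acadm and Hadha in Arrest at 0.5 and 1 days overlap the Naïve range, Acsl1 at 0.5 days lies below it in both arms, and the cross is the lowest point of its group in every panel but that of Cpt1a, where it is the highest at 10 FPKM.

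Among enzymes for unsaturated fatty acids, Eci2, an enoyl-CoA isomerase of mitochondria and peroxisomes, rose. It read 19.7, 15.3, 21.3, 19.6 and 19.1 FPKM in Naïve, 27, 29.6, 23.9 and 29.1 in Arrest at 0.5 days and 32.9, 29.8, 35.4 and 23.8 at 1 day, with every early Arrest library above every Naïve one. Its log2 fold change was 0.65 ± 0.20, adjusted p = 0.04 at 1 day and 0.51 ± 0.20, adjusted p = 0.15 at 0.5 days, the latter passing at 0.038 without the Adr library. Gm16984 overlaps Eci2 on the other strand, and Dnajb13 overlaps Ucp2, with the same limit if strand was not used in counting. Eci1 and Decr1, of the same class, did not pass (0.30 ± 0.25 and 0.14 ± 0.20 at 1 day). The electron acceptors Etfa, Etfb and Etfdh had log2 fold changes between 0.18 and 0.32 in Arrest at 1 day, and 0 of 3 passed. Etfb shares its strand and interval with Etfbl and was variable even in Naïve (24 to 64.9 FPKM), so its values are uncertain.

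Acot13 was higher in both arms at the early times. It encodes a mitochondria-associated acyl-CoA thioesterase, which releases fatty acid from its CoA ester, and the table places it at chromosome 13 from 25001931 to 25015523 (minus strand). It read 323, 295, 329, 308 and 348 FPKM in Naïve. It read 579, 591, 559 and 521 in Arrest at 0.5 days and 630.3, 589.9, 714 and 557 at 1 day, and 543, 454, 516 and 519 in Adr at 0.5 days and 630.0, 471, 460.4 and 699 at 1 day. All 16 early libraries of both arms lay above all 5 Naïve libraries. The log2 fold change in Arrest was 0.81 ± 0.21, adjusted p = 0.031 at 0.5 days and 0.95 ± 0.21, adjusted p = 0.006 at 1 day with all libraries. Quantile normalization brought these down to 0.55 (adjusted p = 0.069) and 0.55 (adjusted p = 0.049). Acot13 is short, at 744 bases beside a median member length of 3541. With the trend of values with gene length removed, its 0.5-day call was lost and its 1-day call was kept.

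In Adr the Acot13 log2 fold changes were 0.66 ± 0.21, adjusted p = 0.15 at 0.5 days and 0.79 ± 0.21, adjusted p = 0.071 at 1 day with all libraries, and 0.66 ± 0.11, adjusted p = 0.0038 and 0.79 ± 0.11, adjusted p = 0.00039 without replicate 3 of Adr at 3 days, where Acot13 read 109 FPKM against 338, 364 and 374 in the rest of its group. Acot13 thus rose in both arms in that fit. Arrest minus Adr was 0.15 ± 0.22 at 0.5 days and 0.16 ± 0.22 at 1 day, and neither passed (adjusted p = 1 and 0.93). At 3 and 7 days Acot13 overlapped Naïve again, with 278, 391, 371 and 296 FPKM in Arrest at 3 days, 315, 324, 327 and 326 in Arrest at 7 days and 327, 316, 282 and 356 in Adr at 7 days. The fall from 1 to 7 days, which uses no Naïve library, was past the threshold in Arrest (log2 fold change of 1 day over 7 days 0.94 ± 0.22, adjusted p = 0.025) and, without the Adr library, in Adr (0.80 ± 0.12, adjusted p = 0.0019). Leaving out 1 library at a time kept the 1-day call in Arrest each time, whereas the 0.5-day call was lost without replicate 1, 2 or 3 of that group or Naïve replicate 1, 2 or 4 (adjusted p = 0.052 to 0.098). The call of 1 against 7 days was lost without replicate 1 or 3 at 1 day or any 1 library at 7 days (adjusted p = 0.059 to 0.11).

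Acot13 was also the 1 member that stayed past the threshold in Arrest at 1 day when the description number was added as a covariate and replicate 3 of Adr at 3 days was left out (log2 fold change 0.93 ± 0.16, adjusted p = 0.0074). With all libraries and that covariate, its adjusted p was 0.12. The fit with the covariate and without that library was chosen after the data were seen. The numbers were 116 to 127 in Naïve and 70 to 95 in Arrest at 1 day, without overlap. Neither fit can therefore separate the number from the groups, and the kept call is no support for Acot13.

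Acot1 and Acot2, a cytosolic and a mitochondrial thioesterase encoded by near-identical neighbouring genes, spread widely. Acot1 read 4, 4.34, 7.34, 5.87 and 4.15 FPKM in Naïve, 19, 19.1, 7.47 and 10.3 in Arrest at 0.5 days and 22.4, 18.5, 24 and 3.73 at 1 day, where 3 libraries were near 20 and 1 was below the Naïve minimum. Its log2 fold change was 1.34 ± 0.49, adjusted p = 0.09 at 1 day and did not pass in either fit. Acot2 followed, from 21.2 to 31.7 FPKM in Naïve and 20.2 to 59.7 in Arrest at 1 day. Fragments could have been split between the pair, so neither value is certain.

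The uncoupling proteins were unlike each other. Ucp2, widely expressed in immune and other cells, read 9.17, 17.5, 13.6, 18.2 and 12.9 FPKM in Naïve and 36.4, 32.5, 34.9 and 16.1 in Arrest at 1 day, a log2 fold change of 0.99 ± 0.31, adjusted p = 0.045. Macrophage markers (6 genes) summed to 108, 119, 137, 172 and 104 FPKM in Naïve and 137, 137, 127 and 199.7 in Arrest at 1 day, highest in replicate 4, where Ucp2 was lowest. Neutrophil markers (6 genes) summed to 4.27, 9.74, 0.97, 0 and 2.65 FPKM in Naïve and 18, 5.81, 19.3 and 9.07 in Arrest at 1 day, with a median of 2.65 against 13.5, so they were higher along with Ucp2 as a group. The part of either cell type in the result was not tested. Ucp3, the muscle form, read 7.77, 11.4, 5.53, 10.7 and 20.5 FPKM in Naïve and 21.7, 16.2, 24 and 2.69 in Arrest at 1 day, and its log2 fold change of 0.29 ± 0.54, adjusted p = 0.81 was smaller than its error.

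Malonyl-CoA, the brake on the carnitine shuttle, is made by the Acacb product and removed by the Mlycd product. Mlycd ranged from 24.8 to 36.4 FPKM in Naïve and 33.5 to 59.9 in Arrest at 1 day. Acacb ranged from 25.9 to 32.5 and 21.3 to 32.4 FPKM. Neither passed in any of the 14 comparisons of either fit.

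The 4 genes of lipid droplets and lipolysis were higher at 1 day after arrest: 3 of the 4 rose with all libraries and 4 of 4 without replicate 3 of Adr at 3 days. The shares of all genes called higher were 3.89% and 5.71%. With 1 library left out at a time, Pnpla2 and Plin5 each lost the call in 7 of 10 fits. Pnpla2 encodes adipose triglyceride lipase, which opens triglyceride hydrolysis. It read 90.7, 90.4, 116, 92.7 and 94.8 FPKM in Naïve and 233, 237, 252 and 130.2 in Arrest at 1 day, a log2 fold change of 1.09 ± 0.32, adjusted p = 0.037. All Arrest libraries lay above all Naïve ones, replicate 4 by a small margin. Lipe, hormone-sensitive lipase, read 3.79, 6.27, 6.02, 5.18 and 4.7 FPKM in Naïve, 8.93, 10.2, 10.7 and 10.6 in Arrest at 0.5 days and 13.6, 11.6, 14 and 8.73 at 1 day. Its interval, at chromosome 7 from 25078952 to 25098135 (minus strand), also holds 4732471J01Rik on the other strand, and reads of the pair cannot be told apart if strand was not used. The groups did not overlap at either time, and the log2 fold change was 0.86 ± 0.23, adjusted p = 0.038 at 0.5 days and 1.06 ± 0.23, adjusted p = 0.0057 at 1 day. The 0.5-day call was lost without any 1 of the 4 Arrest libraries or without Naïve replicate 1, 4 or 5 (adjusted p = 0.061 to 0.10).

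Of the droplet coat proteins, Plin5, which ties droplets to mitochondria in oxidative tissue, read 42.1, 49.8, 65, 35.8 and 45.6 FPKM in Naïve and 121, 109, 158 and 48.9 in Arrest at 1 day (log2 fold change 1.09 ± 0.34, adjusted p = 0.043). Plin2, the ubiquitous coat protein, read 11.8, 14.3, 15.6, 25.6 and 13.8 FPKM in Naïve, 24.3, 42.8, 24.2 and 38.3 in Arrest at 0.5 days and 40.4, 38.4, 37.7 and 16.7 at 1 day. In both genes replicate 4 at 1 day sat inside the Naïve range and the others above it. Plin2 had log2 fold changes of 0.96 ± 0.35, adjusted p = 0.12 and 0.97 ± 0.35, adjusted p = 0.084, which passed at 0.017 and 0.0098 without replicate 3 of Adr at 3 days, a library in which Plin2 read 81.1 FPKM. In Adr, Plin2 read 14.3, 14.7, 39 and 19 FPKM at 0.5 days and 18.7, 17.3, 20.8 and 18.5 at 1 day and did not pass in either fit. Adipocyte markers summed to 3.13, 0.80, 0, 2.64 and 4.17 FPKM in Naïve and 2.88, 1.35, 1.13 and 0.88 in Arrest at 1 day, and their part in these differences was not tested.

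**Figure D3:**
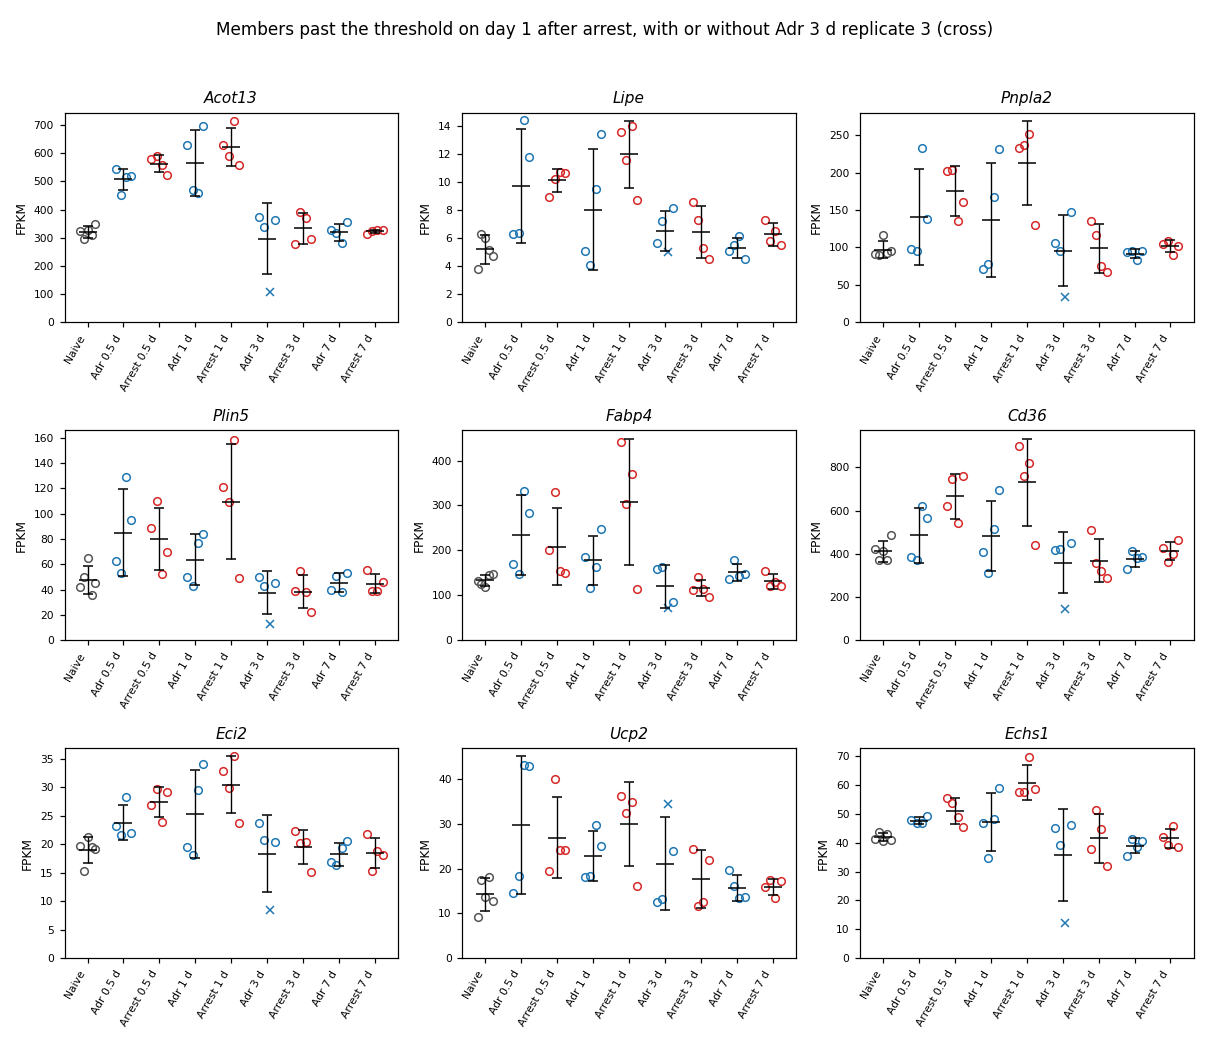
FPKM (y axis, from 0) of 9 members that passed the threshold in Arrest at 1 day with or without replicate 3 of Adr at 3 days, in the 9 groups (x axis), with 1 point per library, the mean and the SD, and a cross for that library. Acot13 is narrow and high in all 4 early groups, from 454 to 714 FPKM against 295 to 348 in Naïve, while Fabp4, Plin5, Pnpla2, Cd36 and Ucp2 in Arrest at 1 day show 3 high points and 1 low point.

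Angptl4, a secreted inhibitor of lipoprotein lipase and a sensitive PPAR target, had the largest log2 fold change of the list in Arrest at 1 day. It read 1.28, 1.07, 0.92, 0 and 2.69 FPKM in Naïve, 1.13, 10.7, 2.31 and 8.18 in Arrest at 0.5 days and 9.94, 6.81, 9.92 and 1.66 at 1 day. Adr libraries read 1.72, 1.71, 18 and 6.34 FPKM at 0.5 days and 1.48, 3.36, 2.89 and 6.82 at 1 day. The log2 fold change in Arrest at 1 day was 1.81 ± 0.60, adjusted p = 0.062 with all libraries and passed at 0.024 without replicate 3 of Adr at 3 days, in which Angptl4 read 13.9 FPKM. Its counts were low, from 0 to 1184 fragments per library.

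Pdk4, the kinase that shuts pyruvate dehydrogenase in fasting, varied more inside groups than any other member, with a within-group SD of 1.14 on the log2 scale without replicate 3 of Adr at 3 days. It read 83.8, 109.7, 88.8, 79.9 and 174 FPKM in Naïve, 63.3, 89.2, 763 and 379 in Adr at 0.5 days and 153, 644, 77.5 and 286 in Arrest at 0.5 days. At 1 day it read 67.3, 42.6, 96.5 and 284 in Adr and 533, 348, 518 and 32.8 in Arrest, so that the last group held both high values and a value below every Naïve library. The log2 fold change in Arrest at 1 day was 1.21 ± 0.71, adjusted p = 0.33, and the test did not separate it from 0. Pdk2, the constitutive cardiac kinase, ranged only from 86.9 to 114 FPKM in Naïve and 83.1 to 102 in Arrest at 1 day.

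Whether other members were high or low in the same libraries as Pdk4 was looked at after the data were seen, and it held in some groups and not in others. The counts out of 39 include Pdk4 itself, whose place was fixed by this choice of libraries. In Adr at 0.5 days, replicate 3 had the highest Pdk4, and 24 of the 39 members were highest there (61.5%), beside 28.5% of all tested genes. In Adr at 1 day, replicate 4 had the highest Pdk4, and 35 of 39 members were highest there (89.7%), beside 24.8% of tested genes. Replicate 2 of the same group had the lowest Pdk4, and 29 members were lowest there (74.4%, beside 26.1%). In Arrest at 1 day, replicate 4 had the lowest Pdk4, and 31 of 39 members were lowest there (79.5%), beside 25.7% of tested genes. The other ends of these early groups showed less of this. Replicate 1 of Arrest at 1 day had the highest Pdk4 but was highest for 17.9% of members, beside 26.7% of genes. Replicate 1 of Adr at 0.5 days had the lowest Pdk4 but was lowest for 20.5% of members, beside 23.7% of genes. In Arrest at 0.5 days, replicate 2 had the highest Pdk4 and was highest for 38.5% of members, beside 26.4%, and replicate 3 had the lowest and was lowest for 64.1%, beside 22.1%. Replicate 3 of Adr at 0.5 days and replicate 4 of Adr at 1 day were also highest in their groups for Angptl4, Acot1, Ucp3, Cd36 and Plin5. For the same genes replicate 4 of Arrest at 1 day was the lowest of its group.

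Other measures of these libraries were compared as well. Replicate 4 of Arrest at 1 day had 21.7% of fragments on mitochondrially encoded genes (26.7%, 22.5% and 27.3% in replicates 1, 2 and 3) and a cardiomyocyte marker sum of 12682 FPKM (12826, 13147 and 14587). Replicate 4 of Adr at 1 day had 25.7% (22.6%, 23.4% and 21.6%) and a sum of 10920 FPKM (14187, 12119 and 10208). Replicate 2 of Adr at 1 day had an adipocyte marker sum of 43.1 FPKM (1.07, 16.7 and 0.47 in replicates 1, 3 and 4) and an atrial marker sum of 693 FPKM (30.0, 158 and 49.3). The part of these measures in the spread was not tested. Members with little spread inside groups, such as Acot13 (SD 0.16), Hadhb (0.17), Echs1 (0.17) and Decr1 (0.17 on the log2 scale without replicate 3 of Adr at 3 days), showed much smaller differences between the same libraries than Angptl4 (0.83), Ucp3 (0.87) and Acot1 (0.73).

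**Figure D4:**
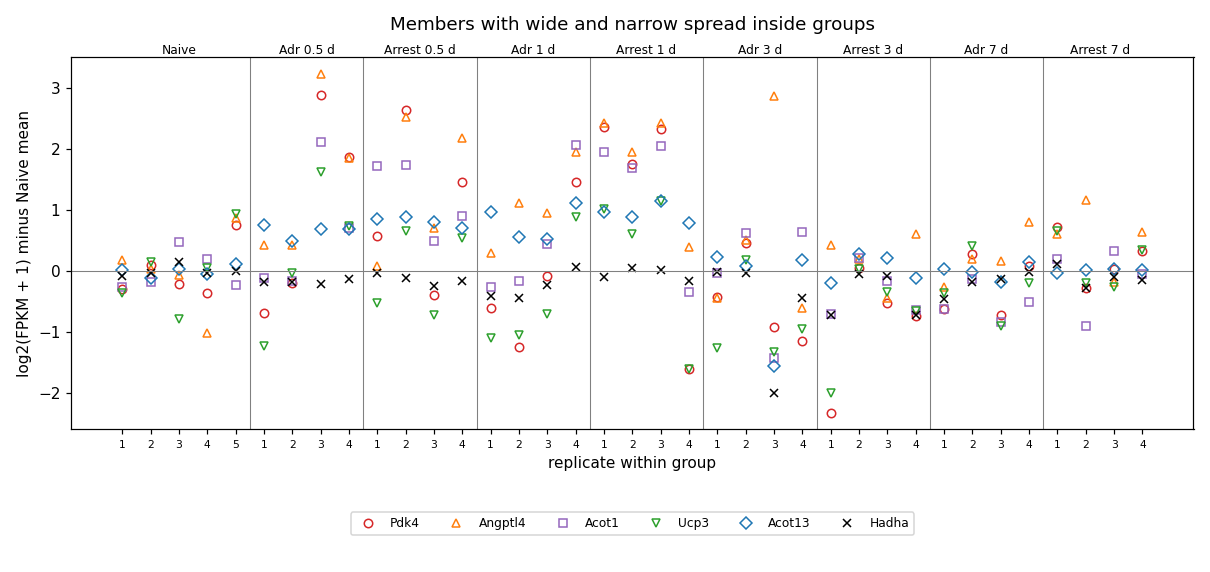
Log2(FPKM + 1) minus the Naïve mean (y axis) of 6 members in each of the 37 libraries, in groups along the x axis by replicate. Pdk4, Angptl4, Acot1 and Ucp3 split the libraries inside Adr at 0.5 and 1 days and Arrest at 0.5 and 1 days, with replicate 4 of Arrest at 1 day near or below 0 for Pdk4, Acot1 and Ucp3, while Acot13 is raised in all 16 of these and Hadha stays near 0 in them.

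Arrest was next compared with Adr on the same day, which asks what the asystole and resuscitation added. With all libraries 0 of 39 members passed on day 0.5, 1, 3 or 7, where 0.0%, 0.0%, 0.0% and 0.00603% of all genes passed, and 0, 4, 0 and 0 members had an unadjusted p up to 0.05. Without replicate 3 of Adr at 3 days the counts were again 0 on each day (0.0% of all genes on all 4), with 2, 13, 4 and 0 members at an unadjusted p up to 0.05, and voom with all libraries also called 0 on each day. At 1 day all 39 log2 fold changes were above 0, from 0.08 (Cpt2) to 1.33 (Pdk4), with a median of 0.31 beside −0.002 over all genes. Of all tested genes 48.97% were above 0. Members share libraries and are not independent of each other. For Cd36 the difference at 1 day was 0.61 ± 0.27, for Plin2 0.72 ± 0.37 and for Echs1 0.38 ± 0.22, with adjusted p of 0.72, 0.76 and 0.8. The counts against Naïve at 0.5 and 1 days were higher in Arrest than in Adr, as they were over all genes. The difference between the arms itself passed for no member.

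The later times, 3 and 7 days, were compared with Naïve in the same way. In Arrest 0 of 39 members passed at 3 or 7 days with all libraries (0.139% and 0.0% of all genes), with 2 and 0 members at an unadjusted p up to 0.05, and 0 and 0 called by voom. Without replicate 3 of Adr at 3 days, 1 member, Acsl1, fell at 3 days and 0 passed at 7 days (1.12% and 0.0% of all genes), with 9 and 1 members at an unadjusted p up to 0.05, none of them higher. The median log2 fold change of the list in Arrest was −0.19 at 3 days and −0.04 at 7 days. At 3 days Acadm read 129, 211, 211 and 137 FPKM and Hadha 72.4, 116, 113 and 71.6, with replicates 1 and 4 low in both. The cardiomyocyte marker sum of these libraries was 6549, 12382, 12423 and 8275 FPKM, low in the same replicates, and its part was not tested. Cd36 at 3 days read 508, 357, 321 and 286 FPKM and Pdk4 19.7, 107, 71.2 and 61.2, both overlapping Naïve.

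The return could be tested without Naïve libraries by setting day 1 against day 7 within an arm. In Arrest 1 member, Acot13, was higher at 1 day with all libraries (2.56% of the list, beside 1.88% of all genes in either direction and 1.14% higher), and 9 were without replicate 3 of Adr at 3 days (23.1%, beside 3.94% and 2.23%). These 9 were Acot13, Cd36, Fabp4, Slc25a20, Echs1, Eci2, Plin2, Plin5 and Pnpla2. Cd36, for example, read 425, 362, 399 and 464 FPKM in Arrest at 7 days, and its log2 fold change of 1 day over 7 days was 0.78 ± 0.21, adjusted p = 0.03 without the Adr library. In Adr 0 of 39 members differed between 1 and 7 days with all libraries (0.0422% of all genes). At an unadjusted p up to 0.05 there were 2 members, beside 1604 of 16579 genes. Voom called 1 member, and its share of all genes is not given here. Without the Adr library 1 member, Acot13, passed (0.38% of all genes). The comparisons of Arrest at 1 day with Naïve and with 7 days share the 1-day libraries and are not independent.

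**Figure D5:**
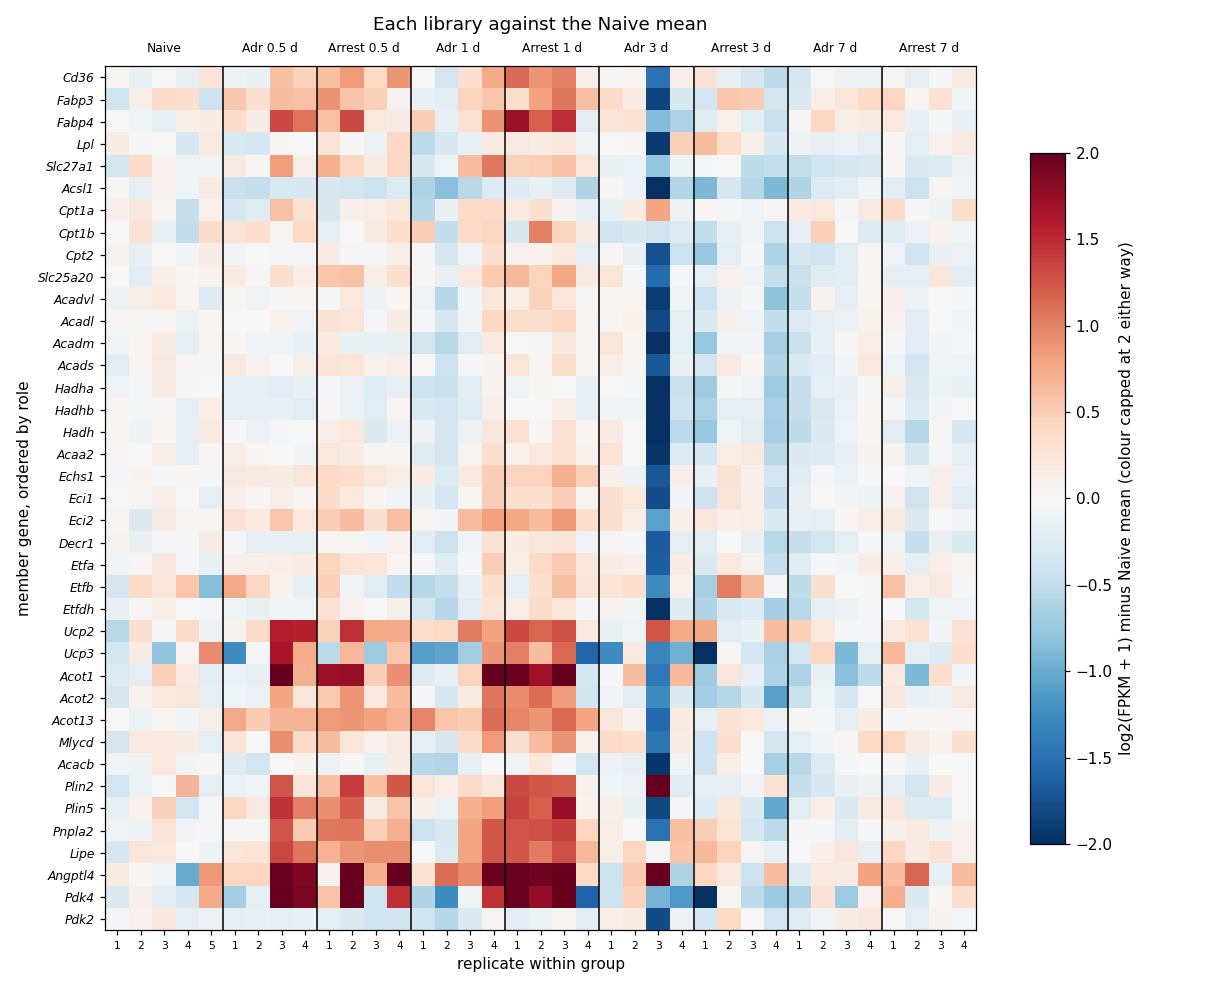
Log2(FPKM + 1) minus the Naïve mean (colour, capped at 2 either way) of the 39 members (rows, by role) in all 37 libraries (columns, by group and replicate). The red block of uptake, thioesterase, droplet, Angptl4 and Pdk4 rows in Arrest at 1 day is paler or missing in replicate 4, Acot13 is red through all 16 early Adr and Arrest libraries, and replicate 3 of Adr at 3 days, the lowest of its group in 33 rows, is mostly blue.

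Other genes of fatty acid metabolism were read from a list of 92, of which 90 were tested. With all libraries 5 rose and 2 fell in Arrest at 1 day, 3 rose and 1 fell in Arrest at 0.5 days, and 2 rose and 1 fell in Adr at 1 day, where 3.2% and 0.627% of all genes were called on the latter 2. The share at 1 day after arrest, 7 of 90, was close to the 7.11% of all genes called. Without replicate 3 of Adr at 3 days, 12 rose and 5 fell in Arrest at 1 day, beside 10.3% of all genes called in either direction and 5.71% higher. In that fit 5 rose and 4 fell in Arrest at 0.5 days, and 3 rose and 7 fell in Adr at 1 day. The shares of all genes called in either direction were 5.49% and 2.5%. Values of single genes from this list are those with all libraries, except for Ppara. Dbi, the acyl-CoA binding protein, had a log2 fold change of 0.85 ± 0.14, adjusted p = 0.0005 in Arrest at 1 day and 0.58 ± 0.14, adjusted p = 0.042 in Adr at 1 day, past the threshold in both arms. Acot9, another mitochondrial thioesterase, behaved similarly (0.89 ± 0.23, adjusted p = 0.016 and 0.97 ± 0.23, adjusted p = 0.042). In Arrest at 1 day Gpihbp1, which anchors lipoprotein lipase to the capillary wall, rose by 1.16 ± 0.34, adjusted p = 0.035, and Mpc2, a subunit of the mitochondrial pyruvate carrier, by 0.73 ± 0.20, adjusted p = 0.025. Mcat, of mitochondrial fatty acid synthesis, rose by 0.67 ± 0.20, adjusted p = 0.04.

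With all libraries the 2 falls in Arrest at 1 day were Esrrg and Pdk1, the latter outside the naming rule. Esrrg, an orphan nuclear receptor that drives oxidative genes in heart, had a log2 fold change of -0.76 ± 0.21, adjusted p = 0.023 in Arrest at 1 day. Pdp2, the phosphatase that switches pyruvate dehydrogenase on, fell in Adr at 1 day (-0.90 ± 0.21, adjusted p = 0.042) and in Arrest at 0.5 days (-0.85 ± 0.21, adjusted p = 0.026). Elovl1, a very-long-chain elongase, rose in Arrest at 0.5 days (0.74 ± 0.21, adjusted p = 0.042). Ppara, which encodes PPARα and was named after its values were seen, did not pass with all libraries. Without replicate 3 of Adr at 3 days it fell in Adr at 1 day (-0.78 ± 0.17, adjusted p = 0.014) and in Arrest at 0.5, 1 and 3 days (-0.68 ± 0.17, adjusted p = 0.016, -0.62 ± 0.17, adjusted p = 0.017 and -0.66 ± 0.17, adjusted p = 0.046).

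Promoters were looked at for shared motifs. RefSeq promoter windows (GRCm38.p6, from 250 bases before to 50 after the start) were held for 32 of the 39 members, as 38 windows, and not for Fabp4, Lpl, Cpt1b, Acaa2, Decr1, Acot13 and Angptl4. On either strand, 0 of the 38 windows held the 6-letter site AGGNCA in direct repeat with 1 base between, the arrangement bound by PPAR with RXR, beside 0.381% of all 32851 windows. None held TNAAGGTCA, the estrogen-related receptor motif, whose last 6 letters are also 1 such site (1.28% of all windows). The E-box CACGTG was in 4 of 38, those of Lipe, Pdk2, Plin2 and Slc27a1, beside 7.15% of all windows. A match of letters is not a bound site, and a missing match says only that these letters are not in this window.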

How the data were processed

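Left ventricular bulk RNA from 37 mice in 9 groups, taken from the sample labels, was sequenced by Novogene. Per the study's methods, HISAT2 v2.0.5 aligned the reads after a FastQC check, and the authors tested differential expression with DESeq2. What was deposited is a single table of FPKM beside gene lengths, symbols and coordinates. Its values came normalised for length and by a factor per library that is not equal to the fragments counted on genes. Genome build, annotation, counting tool and strand are not given in the sources used here, so coordinates are printed as the table gives them and were matched to no reference. The study left out 1 Adr sample at 3 days that the labels do not name, and all 4 were kept here. Multiplied by length, 100% of values fell on whole fragments (tolerance 0.001), and libraries held 13.2 to 30.2 M fragments. These depths limit low values, such as those of Cpt1b and Angptl4. Of the per-sample columns, 0 were unused, and no 2 libraries agreed within sampling noise (666 pairs).

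The members and lists were chosen with earlier results of these data known. The 16579 genes that reached 0.5 FPKM in 4 or more libraries entered limma's trended moderated test on log2(FPKM + 1), with a mean for each group and no covariates (limma version 3.58.1, R version 4.3.3), with Benjamini-Hochberg adjustment within each of 14 comparisons. The fit was tested on simulated data. Values per library are given for 14 chosen members from 9 of the 12 roles (none of the auxiliary enzymes, electron transfer or malonyl-CoA control) and for at most 12 past the threshold, by smallest adjusted p. Of the second pathway list, at most 8 genes past the threshold are named by smallest adjusted p. Members whose interval on the same strand holds another listed gene number 6, and on the other strand 13, and without the strand setting these can share fragments. Alternatives were the scaling, the pseudocount (0.1), the filter, removal of the length trend (span 0.5), quality weights, the description number, the replicate number, only the 2 compared groups, limma's voom on recovered fragments and leaving out each library. Plots used matplotlib version 3.10.9 under Python version 3.11.15.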

Additional observations from a re-analysis of the deposited data

Results flagged for a closer look

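Single libraries that lay far from the rest of their group were looked for in the 22 members with values per library, on the log2(FPKM + 1) scale, with Dixon's test at the 95% level. Of 198 sets of 4 or 5 libraries, 21 were past it, where chance gives about 1 in 20.

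Replicate 3 of Adr at 3 days accounted for 8 of the 21, with Cd36 at 147 FPKM, Acadvl at 26.7, Acot13 at 109, Eci2 at 8.43, Plin5 at 12.4, Echs1 at 12.3 and Slc25a20 at 9.59, all low, and Plin2 at 81.1, high. This library had 9.36% of fragments on mitochondrially encoded genes, a cardiomyocyte marker sum of 3158 FPKM, a fibroblast marker sum of 1133 and a macrophage marker sum of 578, against 316.8 to 769 for fibroblasts and 84.5 to 271 for macrophages in the other libraries. The part of these measures was not tested.

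Replicate 4 of Arrest at 1 day accounted for 5, all low: Acot1 at 3.73 FPKM, Plin2 at 16.7, Pdk4 at 32.8, Pnpla2 at 130.2 and Ucp2 at 16.1. Without it the number of members past the threshold in that group against Naïve was 13 in place of 7. The share of all genes called without it is not given here, so the move is not shown to be particular to the members.

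The other 8 were spread over 8 libraries. Cpt1a read 3.66 FPKM in Naïve replicate 4, Pnpla2 read 116 in Naïve replicate 3, and Cpt1b read 0 in Adr replicate 2 at 1 day. Pnpla2 read 83.3 in Adr replicate 3 at 7 days. Acadm read 251 in Arrest replicate 1 at 0.5 days and 188 in Arrest replicate 2 at 7 days. Echs1 read 69.8 in Arrest replicate 3 at 1 day, and Slc25a20 read 35.1 in Arrest replicate 3 at 7 days.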

How the results depend on the processing

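All 10 fold changes of members that passed with all libraries kept their direction in every alternative run, and the calls were kept in 122 and lost in 97 of 219 alternatives. Acot13 and Lipe in Arrest at 1 day kept theirs in all leave-one-out fits. The count of members past the threshold moved as follows, given without the share of all genes called, which also moved. In Adr at 0.5 days, for example, 31 of 16579 genes were called in the main fit. It was 18 with the description number, 32 with the 2 compared groups, 92 with voom and 362 with quality weights. The counts alone therefore do not set the members apart from all genes, and the cause was not tested. In Arrest at 1 day (7) it was 0 with the description number as covariate, 1 with that covariate and without replicate 3 of Adr at 3 days (chosen after seeing the data), 2 without a filter, 2 with quantile normalization and 15 with quality weights. In Arrest at 0.5 days (2) it was 0 with the number, 0 without a filter, 1 with quantile normalization, 1 with the length trend removed and 5 in a fit of the 2 compared groups. For 1 against 7 days in Arrest (1) it was 0 with the number, 5 with the number and without the Adr library, 0 with quantile normalization, 6 with the 2 compared groups, 14 with quality weights, and 4 both with scaling to counted fragments and with voom. In Adr, where no member passed, it was 1 at 0.5 days with the 2 compared groups, and 1 at 0.5 days, 1 at 1 day and 1 for 1 against 7 days (2 with weights) with quality weights, counted-fragment scaling, voom, or the number without the Adr library. Leaving out each library in turn gave 2 to 13 in Arrest at 1 day, 0 to 5 at 0.5 days, 0 to 1 at 3 days and 0 to 9 for 1 against 7 days, and in Adr 0 to 1 at 0.5 days, 0 to 2 at 1 day and 0 to 1 for 1 against 7 days.

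Replicate numbers did not pair the samples: same-numbered libraries had correlated deviations above 0.1 for every pair in 0 of 14 comparisons. With the replicate number as a block, 0 members passed in Arrest at 0.5 days, 2 at 1 day and 1 for 1 against 7 days. The share of all genes is again not given beside these counts.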

Other observations

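Within the 3- and 7-day groups the members were again high or low together in some libraries. In Arrest at 3 days, replicate 2 was highest for 24 of 39 members (61.5%, beside 22.7% of all tested genes) and replicate 4 lowest for 24 (61.5%, beside 16.5%). In Adr at 7 days, replicate 1 was lowest for 26 members (66.7%, beside 36.9%) and replicate 4 highest for 24 (61.5%, beside 24.4%). In Arrest at 7 days, replicate 2 was lowest for 24 members (61.5%, beside 27.5%) and had an adipocyte marker sum of 131 FPKM and an atrial marker sum of 256.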
